A study of Mus musculus with 12 samples.

Results

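Creatine kinase moves a phosphate group between ATP and creatine, and the 7 genes described here encode its isoforms and the proteins that supply creatine to the cell. The members are *Ckm*, *Ckmt2*, *Ckb* and *Ckmt1* (the creatine kinases), *Slc6a8* (the creatine transporter), and *Gatm* and *Gamt* (the enzymes of creatine synthesis). They were chosen by their symbols, and all 7 were among the 53801 genes measured. RNA had been sequenced from whole hearts of adult male C57BL/6N mice, a wild-type strain, after sham surgery or after acute myocardial infarction (AMI) by permanent ligation of the left anterior descending coronary artery. The 3 groups of 4 hearts each are called sham, day 1 AMI (taken on the day after ligation) and day 7 AMI. Each library was 1 heart, so infarcted and spared muscle were sequenced together. The protocol names 0, 1 and 7 days for the series as a whole, and which of them applies to the sham hearts is not given in the sources used here.

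In heart muscle, mitochondrial creatine kinase, a product of *Ckmt2* or *Ckmt1*, charges creatine to phosphocreatine beside the sites where ATP is made. Cytosolic creatine kinase, a dimer of M chains from *Ckm* and B chains from *Ckb*, returns the phosphate to ATP beside the myofibrils and ion pumps. The MB dimer in blood is a classical marker of infarction, and a larger share of B chains is a known feature of the fetal and of the failing heart. Cardiomyocytes take up most of their creatine from the blood through SLC6A8, while GATM and GAMT synthesize it chiefly in kidney, pancreas and liver. The comparison of *Ckm* with *Ckb* therefore asks how the muscle and brain isoforms stood to each other in sham hearts and on either day after AMI.

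The libraries held 23204551 to 32166517 counts (median 25338048), of which the mitochondrial genome took 12.1% to 27.4%. The factors of the TMM normalization, which scales libraries to each other, differed between groups: 0.781 to 0.917 for sham, 1.01 to 1.06 for day 1 AMI and 1.10 to 1.17 for day 7 AMI. CPM (library counts rescaled to a common total) are given after this scaling and are used for 1 gene across hearts, while TPM, which correct for gene length, are used to set genes beside each other. Sham replicate 2 stood apart in its red blood cell transcripts, with 4450 CPM summed over 5 erythroid markers against 491 CPM in the lowest sham heart, and values without it are given where it changes a result. A change is said to have passed where the false discovery rate (FDR) was below 0.05 over the 15306 genes tested with the edgeR quasi-likelihood test, and a DEG also had a fold change (FC) of 2 or greater. The filter on low counts kept 6 of the 7 members and left out *Ckmt1*.

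The 7 genes lie on 6 chromosomes of the GRCm38 mouse genome and are annotated in GENCODE M21. *Ckm* (ENSMUSG00000030399) is at chr7:19404776-19422841 on the plus strand, and *Ckb* (ENSMUSG00000001270) is at chr12:111669361-111672338 on the minus strand. *Ckmt2* (ENSMUSG00000021622) is at chr13:91853387-91876885 on the minus strand, and *Ckmt1* (ENSMUSG00000000308) is at chr2:121357714-121363737 on the plus strand. *Slc6a8* (ENSMUSG00000019558) is at chrX:73673150-73682502 on the plus strand, *Gatm* (ENSMUSG00000027199) at chr2:122594467-122611303 on the minus strand and *Gamt* (ENSMUSG00000020150) at chr10:80258151-80261012 on the minus strand. An antisense gene, A930016O22Rik, covers 15.5% of the exon bases of *Ckm* and had 24 to 109 counts per library, against at least 29476 for *Ckm*. Of the stretches of 75 bases in *Ckb* transcripts, 5.82% also occur in *Gm12892*, which had at most 1 count per library.

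The upstream sequences of the 3 main creatine kinase genes of the heart are shown because these genes moved in opposite directions after AMI. RefSeq gives promoter windows (GRCm38.p6) for 6 of the 7 members, all but *Slc6a8*. Each sequence below is on the gene's own strand, 5′ to 3′, within the 250 bases before the RefSeq start and without annotated exon bases. Capitals mark E-boxes (CANNTG), CCAAT boxes (CCAAT), TATA boxes (TATAAA) and the MEF2 consensus, searched on both strands.
*Ckm*, chr7:19410844-19411024, plus strand: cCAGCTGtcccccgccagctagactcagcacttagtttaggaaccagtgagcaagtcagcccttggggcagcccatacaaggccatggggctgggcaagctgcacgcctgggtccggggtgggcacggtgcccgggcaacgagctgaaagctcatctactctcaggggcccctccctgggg
*Ckmt2*, chr13:91876886-91877135, minus strand: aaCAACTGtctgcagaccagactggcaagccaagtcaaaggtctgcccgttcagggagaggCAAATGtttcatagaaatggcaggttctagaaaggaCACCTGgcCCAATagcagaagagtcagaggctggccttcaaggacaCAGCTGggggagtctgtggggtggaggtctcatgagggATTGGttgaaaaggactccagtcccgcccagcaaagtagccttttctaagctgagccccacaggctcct
*Ckb*, chr12:111672339-111672588, minus strand: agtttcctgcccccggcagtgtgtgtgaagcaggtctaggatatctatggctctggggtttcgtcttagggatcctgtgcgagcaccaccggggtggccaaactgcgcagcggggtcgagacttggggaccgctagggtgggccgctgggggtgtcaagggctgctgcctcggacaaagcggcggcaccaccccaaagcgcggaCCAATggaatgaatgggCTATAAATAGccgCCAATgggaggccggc

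The *Ckmt2* window held 4 E-boxes and 2 CCAAT boxes, and the printed stretch of *Ckm* held 1 E-box. E-boxes were in 66.2% and CCAAT boxes in 33.8% of the 32851 RefSeq promoter windows of this length. The *Ckb* window held no E-box, 2 CCAAT boxes, and a TATA box 28 bases before the start that lies inside a match to the MEF2 consensus. A TATA box was found in 12.4% and the MEF2 consensus in 1.69% of all windows. The RefSeq start of *Ckm* lies within the longer GENCODE span of the gene, and the window before it was shortened where GENCODE has an exon. These matches describe the letters of the windows and say nothing of factors bound there.

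*Ckm* and *Ckmt2* were the abundant isoforms in every heart, and both fell after AMI. *Ckm*, the cytosolic muscle isoform, stood at 2707, 2579, 2764 and 3231 CPM in the 4 sham hearts. The day 1 AMI hearts had 1491, 1433, 1732 and 1513 CPM, and the day 7 AMI hearts had 1263, 1139, 1401 and 1202 CPM. All AMI hearts of both days were below all sham hearts, and every day 7 heart was below every day 1 heart. The mean of *Ckm* was 2820 ± 285 CPM in sham, 1542 ± 131 CPM on day 1 and 1251 ± 112 CPM on day 7 (SD, n = 4 each). Its level on day 1 was 0.547 times that of sham, with a log2 FC of -0.87 (SE 0.102, adjusted p = 4.24e-05). On day 7 it was 0.444 times that of sham, with a log2 FC of -1.17 (SE 0.102, adjusted p = 4.93e-07), which made *Ckm* a DEG. The further change from day 1 to day 7 was -0.30 on the log2 scale (SE 0.101, adjusted p = 0.0242).

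*Ckmt2*, the sarcomeric mitochondrial isoform, followed *Ckm* with a smaller change. The sham hearts had 2596, 2433, 2658 and 3076 CPM of *Ckmt2*. On day 1 AMI the hearts had 1646, 1683, 1782 and 2045 CPM, and on day 7 AMI they had 1315, 1484, 1560 and 1377 CPM. Again the 3 groups did not overlap. The log2 FC of *Ckmt2* was -0.59 on day 1 (SE 0.103, adjusted p = 0.00054) and -0.91 on day 7 (SE 0.103, adjusted p = 4.69e-06), both against sham. From day 1 to day 7 it changed by -0.32 on the log2 scale (SE 0.102, adjusted p = 0.0195). In fits with 1 heart left out, the change from day 1 to day 7 no longer passed for *Ckm* without day 1 AMI replicate 3, day 7 AMI replicate 2 or day 7 AMI replicate 4 (adjusted p up to 0.0859), or for *Ckmt2* without day 1 AMI replicate 4, day 7 AMI replicate 1 or day 7 AMI replicate 4 (adjusted p up to 0.0558).

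The size of these decreases depended on the scaling between libraries. On the log2(TPM + 1) scale with limma, which moved the median of all genes up by 0.30 on day 1 and 0.50 on day 7 relative to the TMM scale, *Ckm* changed by -0.53 on day 1 (adjusted p = 0.00142) and -0.57 on day 7 (adjusted p = 0.000381) against sham. On the same scale *Ckmt2* changed by -0.27 on day 1, which did not pass (adjusted p = 0.066), and by -0.35 on day 7 (adjusted p = 0.0127). Between day 1 and day 7 the log2(TPM + 1) differences were -0.03 for *Ckm* and -0.09 for *Ckmt2*, and neither passed (adjusted p = 0.812 and 0.562).

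**Figure D1:**
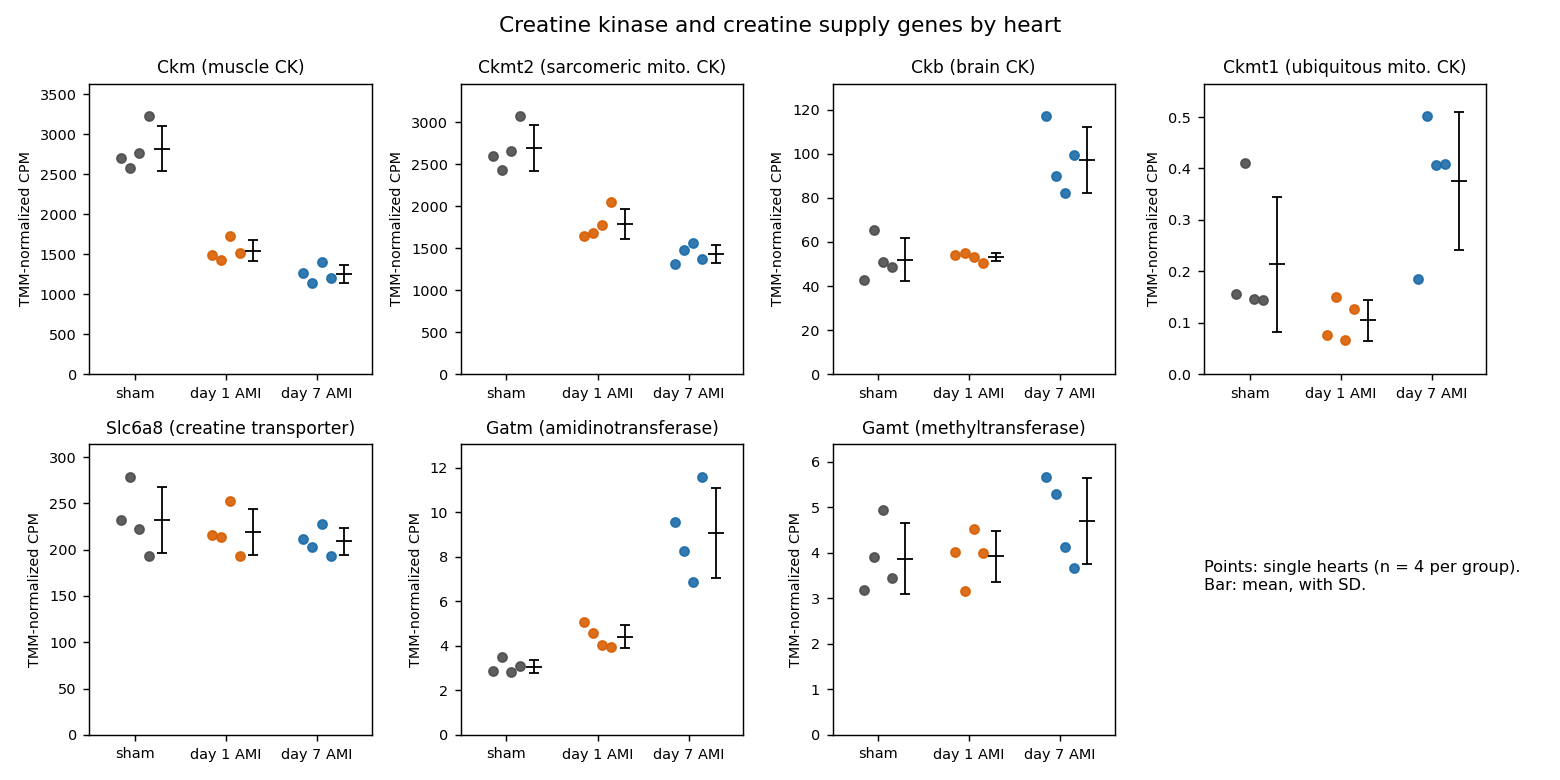
TMM-normalized CPM (y axis, from 0, a separate scale for each gene) of the 7 genes in the 12 hearts, by group on the x axis, with points for hearts and a bar for the mean with its SD (n = 4). *Ckm* and *Ckmt2* are highest in the sham hearts, *Ckb* and *Gatm* are highest in the day 7 AMI hearts, and the 3 groups overlap for *Slc6a8* and *Gamt*.

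*Ckb*, the brain isoform, which non-muscle cells also express, rose late. The sham hearts had 42.7, 65.5, 50.8 and 48.8 CPM of *Ckb*, and the day 1 AMI hearts had 54.2, 54.9, 53.0 and 50.4 CPM. The day 7 AMI hearts had 117, 90.0, 82.0 and 99.7 CPM. The sham and day 1 hearts overlapped, while each day 7 heart was above all 8 others. On day 1 the log2 FC of *Ckb* against sham was 0.03 with a 95% interval from -0.24 to 0.30, and it did not pass (adjusted p = 0.858). On day 7 *Ckb* was 1.87 times its sham level, a log2 FC of 0.90 (SE 0.127, adjusted p = 3.11e-05). The rise of *Ckb* between the AMI days was 0.87 on the log2 scale (SE 0.126, adjusted p = 8.99e-05). Without sham replicate 2, the sham heart with the most *Ckb*, the day 7 change was 1.03 (adjusted p = 7.08e-06). On the log2(TPM + 1) scale the day 7 change was 1.44 (adjusted p = 5.12e-06), larger than the shift of all genes on that scale.

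*Ckmt1*, the ubiquitous mitochondrial isoform, was close to the limit of detection. It had 3, 10, 3 and 3 counts in the sham hearts, 2, 5, 2 and 4 counts in the day 1 AMI hearts, and 6, 13, 11 and 12 counts in the day 7 AMI hearts. A count of 3, taken as the floor of a library, corresponded to 0.0895 to 0.156 CPM, so most sham and day 1 values were at or near it. Every day 7 heart was above every day 1 heart, while sham and day 7 overlapped through sham replicate 2. In the edgeR fit without the filter on low counts, the log2 FC of *Ckmt1* was -1.0 for day 1 against sham (adjusted p = 0.292), 0.75 for day 7 against sham (adjusted p = 0.333) and 1.76 for day 7 against day 1 (adjusted p = 0.0237). With 1 heart left out, the filter kept *Ckmt1* in 9 of the 12 edgeR fits. It passed the filter there through its day 7 hearts, the group with the most counts. These fits were thus selected by the outcome, and their values add no support for a rise of *Ckmt1* on day 7. Its change on day 7 against sham passed in 1 of these 9, without sham replicate 2, at 1.29 (adjusted p = 0.0400). Over the 9 fits this change was 0.59 to 1.29, with an adjusted p of up to 0.343. The change between the days was 1.60 to 2.00 and passed in all 9, which the same selection favours.

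As shares of all creatine kinase transcripts, which allows the isoforms to be compared per length, *Ckm* was lower and *Ckmt2* and *Ckb* were higher in every AMI heart than in every sham heart. The 4 isoforms summed to 5822 ± 567 TPM in sham, 4386 ± 422 TPM on day 1 and 4278 ± 149 TPM on day 7. *Ckm* made up 58.0 ± 0.230% of this sum in sham, 53.2 ± 2.03% on day 1 and 53.1 ± 1.42% on day 7. *Ckmt2* made up 41.1 ± 0.182%, 45.4 ± 2.07% and 43.7 ± 1.66% of it in the same order. *Ckb* remained a small part throughout. Its share of the sum was 0.743, 1.18, 0.864 and 0.686% in the sham hearts, 1.59, 1.56, 1.34 and 1.24% in the day 1 AMI hearts, and 3.99, 3.00, 2.37 and 3.51% in the day 7 AMI hearts. The *Ckb* shares of the 3 groups did not overlap. *Ckmt1* never exceeded 0.0211% of the sum. On the TPM scale the order of the levels was *Ckm*, *Ckmt2*, *Ckb* and *Ckmt1* in all 12 hearts.

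For the muscle against the brain isoform, the TPM of *Ckm* was 78.2, 49.0, 66.9 and 85.0 times that of *Ckb* in the sham hearts. The ratio was 34.0, 33.6, 41.4 and 41.1 in the day 1 AMI hearts and 13.7, 17.2, 22.8 and 14.9 in the day 7 AMI hearts. All 3 groups were separate, with the lowest sham heart above the highest day 1 heart. Because both genes were read from the same heart, this ratio does not depend on how the libraries were scaled to each other. The log2 ratio of *Ckb* to *Ckm* rose by 0.87 on day 1 (SE 0.193), by 2.02 on day 7 (SE 0.238), both against sham, and by 1.15 from day 1 to day 7 (SE 0.182). In the exact two-sided permutation test of 4 hearts against 4, each of these 3 differences had p = 0.0286, the smallest p that 70 splits can give, and an adjusted p of 0.0367 over the 9 ratio tests. With 1 heart left out, here and in the later exact tests, 35 splits remain, so p and adjusted p move in coarse steps. The day 1 difference then no longer passed whichever heart was left out. The day 7 difference against sham was not past the limit without a sham heart, whichever it was, or day 7 AMI replicate 3. Between the days the call was lost without day 7 AMI replicate 3. The adjusted p in these fits was 0.0514 to 0.0735. The differences stayed between 0.77 and 1.03 on day 1, 1.92 and 2.18 on day 7 against sham, and 1.05 and 1.30 between the days. On day 1 the ratio changed while *Ckb* itself did not pass its test, whereas *Ckm* had fallen. On the TMM scale *Ckm* changed by -0.87 on day 1 and -1.17 on day 7 against sham. The median of all genes tested was -0.01 and 0.03, so a gene at that median also rose against *Ckm*. The share of genes that separated against *Ckm* was not computed. Against the cardiomyocyte markers described below, 60.2% and 76.8% of genes tested were higher in every AMI heart than in every sham heart.

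The TPM ratio of the abundant isoforms was tightly held in sham hearts. *Ckm* was 1.41, 1.41, 1.40 and 1.42 times *Ckmt2* there. After AMI the ratio was 1.21, 1.14, 1.29 and 1.06 on day 1 and 1.31, 1.13, 1.24 and 1.18 on day 7, lower than in every sham heart and more variable. The log2 ratio of *Ckmt2* to *Ckm* rose by 0.27 on day 1 (SE 0.0606) and 0.22 on day 7 (SE 0.0461) against sham, each with an exact permutation p of 0.0286 (adjusted p = 0.0367). Both calls were lost whichever sham heart was left out and, on day 7, without day 7 AMI replicate 3 (adjusted p up to 0.0735), at differences of 0.22 to 0.31 and 0.18 to 0.25. It differed by -0.05 between day 7 and day 1, which did not pass (exact permutation p = 0.571, adjusted p = 0.6). The log2 ratio of *Ckmt1* to *Ckmt2*, which rests on few *Ckmt1* counts, was 1.64 higher on day 7 than in sham and 1.44 higher than on day 1 (exact permutation p = 0.0286, adjusted p = 0.0367 for both). The first of these did not pass whichever heart was left out, nor the second without day 7 AMI replicate 3 (adjusted p up to 0.0735), at 1.47 to 1.90 and 1.27 to 1.62. With raw counts plus 1 in place of TPM, the *Ckmt1* to *Ckmt2* difference on day 7 against sham was 1.58 and no longer passed (adjusted p = 0.0735).

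**Figure D2:**
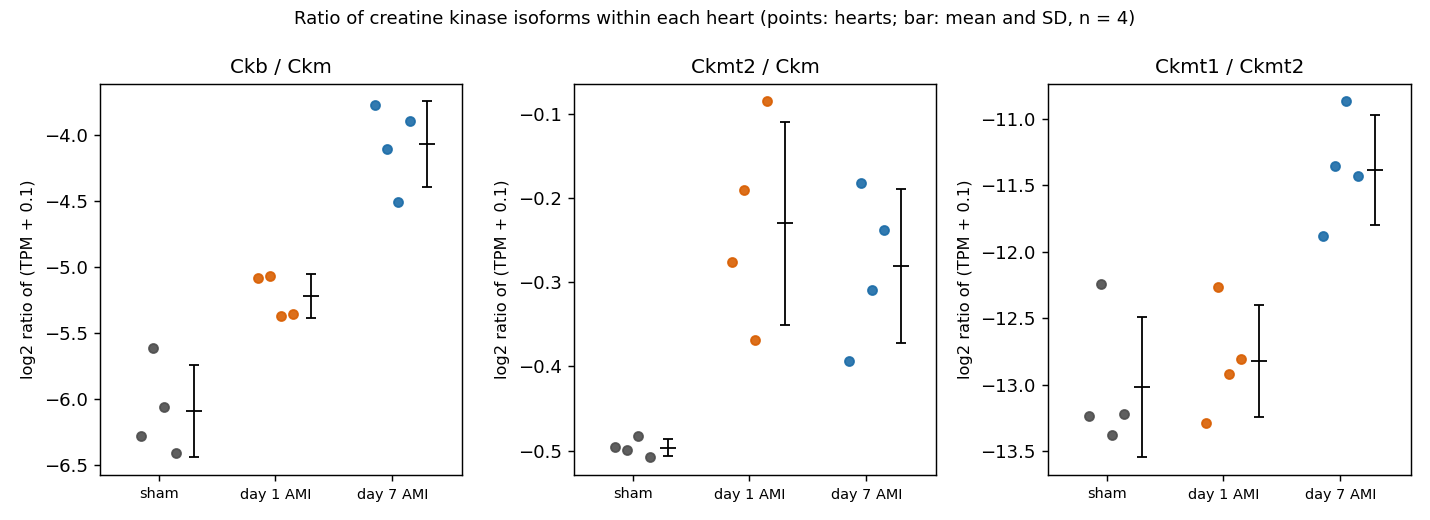
Log2 ratio of isoforms (y axis, log2 of the TPM + 0.1 ratio, a separate scale for each panel) within each of the 12 hearts, by group on the x axis, with points for hearts and a bar for the mean with its SD (n = 4). The *Ckb* to *Ckm* ratio is separate in the 3 groups, and the *Ckmt2* to *Ckm* ratio is between -0.51 and -0.48 in the sham hearts and higher in every AMI heart.

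Among the genes of creatine supply, the transporter had the most abundant transcript, which differed little between groups on the TMM scale. *Slc6a8* had 232, 279, 222 and 193 CPM in the sham hearts, 216, 214, 253 and 193 CPM on day 1 AMI, and 212, 203, 227 and 193 CPM on day 7 AMI. The groups overlapped throughout. The log2 FC was -0.08 on day 1 (95% interval -0.32 to 0.16, adjusted p = 0.586) and -0.15 on day 7 (95% interval -0.39 to 0.09, adjusted p = 0.268), both against sham. The sign turned with the scaling: on the log2(TPM + 1) scale *Slc6a8* changed by 0.24 on day 1 (adjusted p = 0.13) and 0.47 on day 7 (adjusted p = 0.00375), both smaller than the shift of the median gene on that scale. In TPM the hearts stood at 78.1, 110, 83.2 and 68.6 in sham, 96.7, 97.9, 112 and 89.7 on day 1, and 116, 111, 120 and 119 on day 7. On this scale, every day 7 heart was above every sham heart.

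*Gatm*, which encodes the amidinotransferase that makes guanidinoacetate from arginine and glycine, had the largest increase against sham among the 6 members tested. It was low in sham hearts, at 2.87, 3.49, 2.81 and 3.11 CPM. It rose to 5.05, 4.60, 4.06 and 3.94 CPM on day 1 AMI and to 9.55, 8.27, 6.86 and 11.6 CPM on day 7 AMI. The 3 groups did not overlap. *Gatm* was 1.43 times its sham level on day 1 (log2 FC 0.52, SE 0.172, adjusted p = 0.0261) and 2.95 times on day 7 (log2 FC 1.56, SE 0.170, adjusted p = 3.25e-06). Between the AMI days *Gatm* rose 2.06-fold (log2 FC 1.04, SE 0.162, adjusted p = 0.000155), and it was a DEG in both comparisons of day 7. The day 1 call was lost without sham replicate 1, 3 or 4 or without day 1 AMI replicate 1 or 2 (adjusted p from 0.0503 to 0.0756), with a log2 FC of 0.45 to 0.59 over the 12 fits that left out 1 heart.

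*Gamt*, the methyltransferase that completes creatine from guanidinoacetate, changed less. The sham hearts had 3.18, 3.90, 4.95 and 3.44 CPM, the day 1 AMI hearts 4.02, 3.16, 4.51 and 4.00 CPM, and the day 7 AMI hearts 5.67, 5.29, 4.13 and 3.67 CPM. The groups overlapped. The log2 FC was 0.02 on day 1 (95% interval -0.39 to 0.42, adjusted p = 0.947) and 0.28 on day 7 (95% interval -0.12 to 0.68, adjusted p = 0.218), both against sham. On the log2(TPM + 1) scale the day 7 change was 0.75 (adjusted p = 0.00118), against a shift of 0.50 for the median gene, and with library sizes alone it was 0.67 (adjusted p = 0.00917), against a shift of 0.40. Per length, *Gatm* stood at 0.287 ± 0.0578 times the TPM of *Gamt* in sham, 0.412 ± 0.0793 times on day 1 and 0.745 ± 0.302 times on day 7. *Slc6a8*, at 68.6 to 120 TPM, was above *Gamt*, at 4.42 to 12.7 TPM, and *Gatm*, at 1.42 to 10.5 TPM, in all 12 hearts.

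Among the 6 members tested, day 1 AMI against sham gave 1 increase (*Gatm*) and 2 decreases (*Ckm* and *Ckmt2*), beside 22.0% of all genes that rose and 19.9% that fell. For day 7 AMI against sham there were 2 increases (*Gatm* and *Ckb*) and 2 decreases (*Ckm* and *Ckmt2*), beside 30.9% and 28.4% of all genes. Day 7 against day 1 gave 2 increases and 2 decreases of the same members as day 7 against sham, beside 24.2% and 22.8% of all genes, and the 3 comparisons share their hearts. The median log2 FC over the tested members was -0.03 for day 1 against sham and 0.06 for day 7 against sham, and over all genes tested it was -0.01 and 0.03. In log2(TPM + 1) the members' medians were 0.27 and 0.61. On that scale 1 member rose and 1 fell on day 1, 4 rose and 2 fell on day 7 against sham, and 3 rose and none fell between the days, and with library sizes alone the counts were 1 and 2, 3 and 2, and 2 and 0. The share of all genes that passed on these 2 scales was not computed, here or for the lists below. DEGs leaned upward there, with 2668 up and 111 down in log2(TPM + 1) on day 7 against sham. With library sizes alone they were 3633 up and 318 down. On the TMM scale no member was a DEG on day 1, when 7.79% of genes tested were DEGs that rose and 2.98% DEGs that fell. DEGs made up 15.3% (higher) and 5.88% (lower) of genes tested on day 7 against sham, where *Gatm* and *Ckm* were DEGs, and 8.55% (higher) and 2.69% (lower) for day 7 against day 1, where *Gatm* was a DEG. In CPM of all 7 members, day 1 AMI and sham did not overlap for 2 members that were lower and 1 that was higher, where such separation was found for 17.1% and 19.6% of all genes tested. No overlap between day 7 AMI and sham was seen for 2 members that were lower and 2 that were higher, beside 24.7% and 28.3% of all genes tested. Day 7 and day 1 did not overlap for 2 that were lower and 3 that were higher, *Ckmt1* among them, beside 20.9% and 23.5%.

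The decrease of *Ckm* and *Ckmt2* ran alongside that of the cardiomyocyte markers. Of 12 such markers (among them *Myh6*, *Tnnt2*, *Tnni3* and *Ttn*), 11 fell on day 1 and 10 on day 7 against sham, with a median log2 FC of -0.65 and -1.09. Of all genes tested, 19.9% and 28.4% fell on these days. On the log2(TPM + 1) scale 4 of the 12 fell on day 1 and 8 on day 7, with a median of -0.34 and -0.50. Their sum was 110753 to 126281 CPM in the sham hearts, 67168 to 83411 CPM on day 1 and 57497 to 68035 CPM on day 7, and none of them was at or under the floor in any group. In bulk RNA, fewer cardiomyocytes and less RNA per cardiomyocyte cannot be told apart. Each member was therefore also set against the mean log2 CPM of the 12 markers in its own heart, with 21 exact two-sided permutation tests.

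Against that mean, *Ckmt2* differed from sham by 0.00 on day 1 (SE 0.0825) and by 0.04 on day 7 (SE 0.0761), and neither passed (exact permutation p = 1 and 0.6). *Ckm* fell by more than the markers did, by 0.28 on the log2 scale on day 1 (SE 0.0749) and 0.23 on day 7 (SE 0.0555), each with an exact permutation p of 0.0286 (adjusted p = 0.0462). Measured against the median of the markers instead, the *Ckm* differences were -0.25 and -0.24 and did not pass (adjusted p = 0.113 for both). Nor did the first pass without sham replicate 4 or whichever day 1 AMI heart was left out, or the second whichever day 7 AMI heart was left out (adjusted p up to 0.0857), at -0.31 to -0.23 and -0.26 to -0.18. Of all genes tested, 1.70% on day 1 and 1.60% on day 7 were, set against the markers, lower in every AMI heart than in every sham heart, and 4.98% were so between day 7 and day 1.

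Because the mean of the markers itself fell by 0.59 on day 1 and 0.95 on day 7, the median of all genes stood 0.59 and 0.98 higher against it, and 60.2% and 76.8% of genes tested were higher in every AMI heart than in every sham heart (39.7% for day 7 against day 1). The values of the other members on this scale are to be read beside those. *Gatm*, *Ckb* and *Gamt* lay above the median gene on day 7, and *Slc6a8* lay below it. The day 7 differences from sham were 1.86 for *Ckb* (SE 0.229), 0.81 for *Slc6a8* (SE 0.160), 2.47 for *Gatm* (SE 0.237) and 1.22 for *Gamt* (SE 0.224), each with an exact permutation p of 0.0286 and an adjusted p of 0.0462. On day 1 the differences passed for *Gatm*, at 1.10, and for *Gamt*, at 0.62, but not for *Ckb*, at 0.64, or *Slc6a8*, at 0.51 (exact permutation p = 0.0571 for both). With the median of the markers as the reference, the day 7 differences and those of *Gatm* and *Gamt* on day 1 had an adjusted p of 0.0545. They also did not pass whichever AMI heart of their day was left out (adjusted p from 0.0545 to 0.0923). Without sham replicate 2, *Ckb* and *Slc6a8* passed on day 1, at 0.81 and 0.66 (adjusted p = 0.0375).

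**Figure D3:**
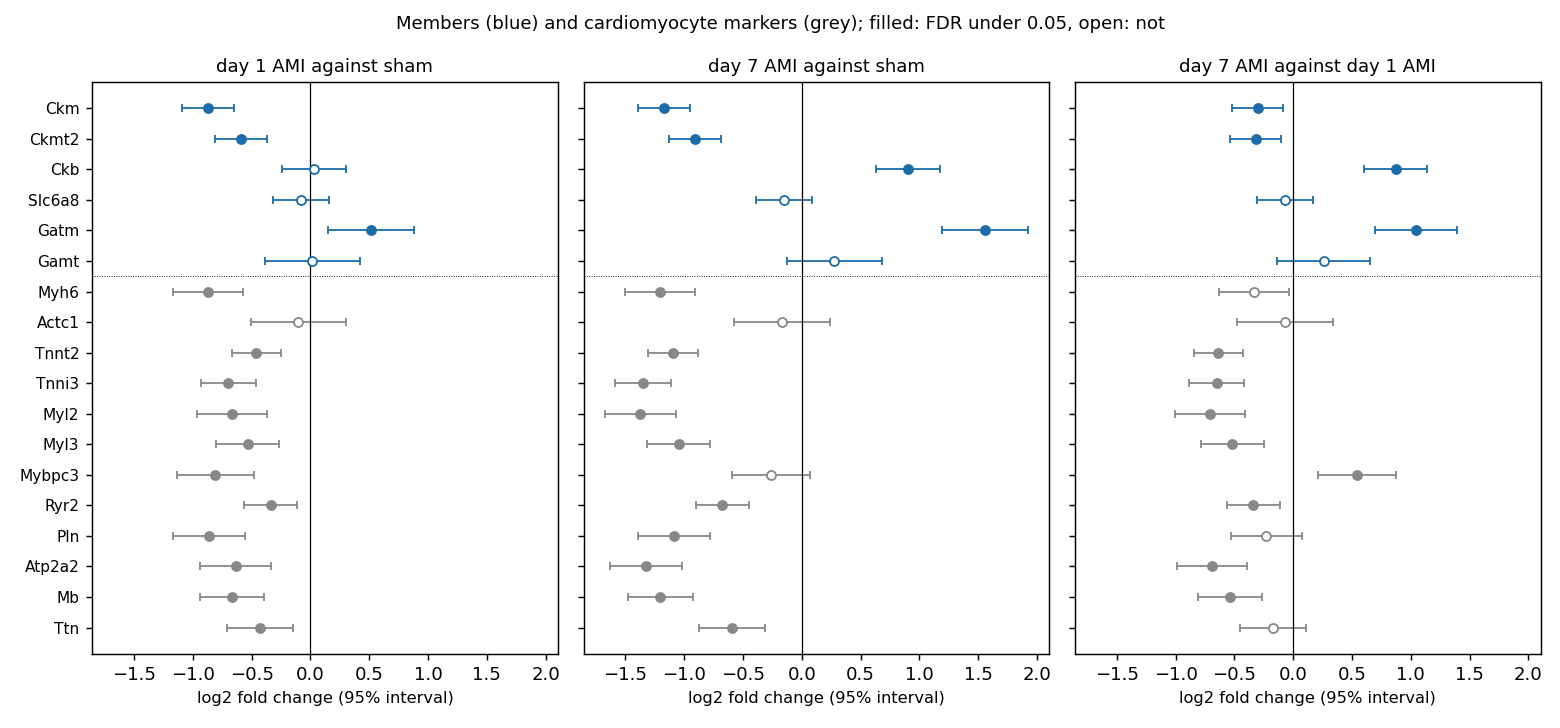
Log2 FC with its 95% interval (x axis, the same scale in the 3 panels) from the edgeR fit for the 6 tested members (blue) and the 12 cardiomyocyte markers (grey) in the 3 comparisons, filled where the FDR was under 0.05. *Ckm* and *Ckmt2* lie among the grey markers, and *Ckb* and *Gatm* lie to the right of 0 in both comparisons of day 7.

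Markers of other cells moved over the same days. Their counts stand beside 22.0% of all genes higher and 19.9% lower on day 1, and 30.9% and 28.4% on day 7. The 8 fibroblast markers summed to 1093 to 1335 CPM in sham, 1746 to 2370 CPM on day 1 and 8207 to 16464 CPM on day 7, with 6 higher and 1 lower on day 1, and all 8 rose on day 7 against sham on the TMM and the log2(TPM + 1) scale alike. The 6 smooth muscle and mural markers summed to 735 to 820, 523 to 662 and 978 to 1497 CPM in the same order, with 2 higher and 1 lower on day 1 and 4 higher on day 7. The 6 endothelial markers summed to 816 to 955, 705 to 756 and 1123 to 1264 CPM, with 5 higher on day 7. The 6 macrophage markers summed to 165 to 258, 276 to 364 and 376 to 593 CPM, with 5 higher on day 1 and 6 on day 7. On the TMM scale *Ckb*, *Gatm* and the sums of all these cell types were above all sham hearts in every day 7 heart. On day 1 *Ckb* overlapped sham, and the smooth muscle and endothelial sums were below it. *Gatm* and the fibroblast and macrophage sums were above all sham hearts on day 1 too. The smooth muscle and mural sum was lower on day 1 although the median log2 FC of its markers was 0.48. The part of these cells in the *Ckb* and *Gatm* results was not tested.

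Neutrophil markers (6 genes) had a median sum of 17.8 CPM in sham (lowest 2.77, highest 57.8), 83.5 CPM on day 1 (47.0 to 166) and 12.4 CPM on day 7 (8.15 to 38.94). Nerve and glial markers (5 genes) summed to between 5.76 and 10.2 CPM and adipocyte markers (5 genes) to between 0.627 and 5.83 CPM in all hearts, and 1 of the 3 nerve and glial markers tested rose on day 7. Skeletal muscle markers (6 genes) summed to 1.10 to 2.46 CPM in sham, 1.36 to 1.68 CPM on day 1 and 2.03 to 6.80 CPM on day 7, and 1 of the 3 tested rose on both days. The 5 erythroid markers summed to 420 to 649 CPM on day 1 and 241 to 969 CPM on day 7.

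Creatine kinase works beside other routes of phosphate and adenine nucleotide exchange, and on the TMM scale most of these fell on day 7, though fewer than 7 of the 14 on day 1, when more of them rose than fell on the log2(TPM + 1) scale. Of 14 listed genes, all tested, 6 fell and 2 rose on day 1, and 12 fell and 2 rose on day 7, with a median log2 FC of -0.26 and -0.67 against sham. Of all genes tested, 19.9% fell and 22.0% rose on day 1, and 28.4% fell and 30.9% rose on day 7. *Slc25a4*, the muscle ADP/ATP carrier of the inner mitochondrial membrane, went from 5130 ± 679 CPM in sham to 3952 ± 439 CPM on day 1 and 1955 ± 161 CPM on day 7, a log2 FC of -0.38 (adjusted p = 0.0191) and -1.39. *Ak1*, the cytosolic adenylate kinase, fell from 595 ± 79.5 CPM to 398 ± 66.3 and 321 ± 18.3 CPM (log2 FC -0.58 and -0.89). *Vdac1*, a channel of the outer mitochondrial membrane, and *Slc25a3*, the phosphate carrier, fell by 0.92 and 0.90 on the log2 scale on day 7. The day 7 values of *Ak1*, *Vdac1* and *Slc25a3* lie near the -0.91 of *Ckmt2*. In log2(TPM + 1), by contrast, 4 of the 14 listed rose and none fell on day 1, and 2 rose and 4 fell on day 7. The median on that scale was -0.04 on day 1 and -0.10 on day 7, and with library sizes alone it was 0.00423 and -0.27. On day 7 *Slc25a4*, *Ak1*, *Vdac1* and *Slc25a3* fell on all 3 scales, by 0.72, 0.32, 0.38 and 0.37 in log2(TPM + 1).

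A pair of phosphotransfer genes ran the other way. *Nme1*, a nucleoside diphosphate kinase, rose from 18.0 ± 0.649 CPM in sham to 45.3 ± 5.09 CPM on day 1 and was 25.7 ± 2.96 CPM on day 7 (log2 FC 1.33 and 0.52, both past the FDR). *Ak5*, a further adenylate kinase, had at most 2 counts in a sham heart and 3 counts in a day 1 AMI heart and stood at 1.92 ± 0.571 CPM on day 7. That is at least 12.3-fold higher than the highest floor of 3 counts in a sham library and at least 16.8-fold higher than the highest floor on day 1.

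AMP sensing and AMP breakdown, which act where ATP is not kept up, showed no common direction. Of 11 listed genes, 10 were tested. On the TMM scale 3 rose and 2 fell on day 1, beside 22.0% and 19.9% of all genes tested. On day 7, 3 rose and 4 fell, beside 30.9% and 28.4% (median log2 FC 0.17 and -0.25). These counts lie near the shares of all genes and are not read as a trait of the list. *Ampd2*, an AMP deaminase, rose from 9.13 ± 1.81 CPM in sham to 18.9 ± 2.65 CPM on day 1 and 23.2 ± 3.84 CPM on day 7 (log2 FC 1.05 and 1.34). *Prkaa2*, the catalytic subunit of AMP-activated kinase that prevails in muscle, changed by -0.15 on day 1 (adjusted p = 0.279) and -0.54 on day 7 (adjusted p = 0.000479), but by 0.18 and 0.03 on the log2(TPM + 1) scale (adjusted p = 0.12 and 0.78). On that scale 6 of the 10 rose and none fell on day 1, and 5 rose and 1 fell on day 7, with medians of 0.46 and 0.32.

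Genes that supply or use arginine and methyl groups, the inputs of GATM and GAMT, moved in both directions. The list mixes both kinds, so its counts and medians do not measure supply. Of 18 listed genes, 15 were tested, with 6 higher and 5 lower on day 1 and 6 higher and 7 lower on day 7 (median log2 FC -0.05 and -0.20). Beside them, 22.0% of all genes were higher and 19.9% lower on day 1, and 30.9% and 28.4% on day 7. *Arg1*, the arginase that splits arginine, had at most 1 count in a sham heart and reached 52.6 ± 30.8 CPM on day 1 and 4.73 ± 3.29 CPM on day 7, at least 336-fold and at least 30.2-fold higher than the highest sham floor of 3 counts. *Slc7a2*, a cationic amino acid transporter that carries arginine, rose from 4.28 ± 0.902 CPM to 8.06 ± 2.15 and 20.7 ± 4.00 CPM (log2 FC 0.91 and 2.27). *Slc7a1*, a related transporter, changed by -0.19 on day 1 (adjusted p = 0.361) and -0.89 on day 7 (adjusted p = 0.000229). *Ass1*, the argininosuccinate synthase of arginine synthesis, rose by 1.05 and 1.39 on the log2 scale. In log2(TPM + 1) the list's medians turned positive, at 0.28 and 0.45, with 8 higher and 1 lower on day 1 and 10 higher and 2 lower on day 7. *Slc7a1* then stood at 0.15 on day 1 and -0.29 on day 7, and neither passed (adjusted p = 0.459 and 0.103).

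For the methyl groups, *Gnmt*, which spends S-adenosylmethionine on glycine, fell from 2.76 ± 0.925 CPM in sham to 1.07 ± 0.365 CPM on day 1 and 0.252 ± 0.124 CPM on day 7 (log2 FC -1.36 and -3.47). *Nnmt*, which spends it on nicotinamide, rose from 1.86 ± 0.377 CPM to 3.47 ± 0.638 and 7.77 ± 1.13 CPM (log2 FC 0.89 and 2.05). Of 4 listed transporters related to creatine or taurine, 3 were tested. *Slc16a12*, a creatine transporter of the monocarboxylate family, changed by 0.22 on day 1 (adjusted p = 0.338) and 0.42 on day 7 (adjusted p = 0.0535). *Slc6a6*, the taurine transporter, rose by 0.88 on day 1 (adjusted p = 0.00224) and stood at 0.28 above sham on day 7 (adjusted p = 0.214), and *Slc16a9* changed by -0.66 on day 1 (adjusted p = 0.0426) and -0.06 on day 7 (adjusted p = 0.849). In log2(TPM + 1) *Slc16a12* rose on both days, by 0.30 and 0.57 (adjusted p = 0.0329 and 0.000332), *Slc6a6* rose on day 7 too, by 0.96 (adjusted p = 0.000431), and *Slc16a9* passed on neither day (adjusted p = 0.245 and 0.143).

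The M-band of the sarcomere, where muscle creatine kinase is bound, had lower transcripts on the TMM scale. All 4 listed genes fell on day 1, and 3 of the 4 fell on day 7 (median log2 FC -0.70 and -0.65), beside 19.9% and 28.4% of all genes tested. *Myom2* changed by -1.20 and -0.81 on the log2 scale on day 1 and day 7. *Myom3* changed by -0.88 on day 1 (adjusted p = 0.00265) and -0.35 on day 7, which did not pass (adjusted p = 0.126). On the log2(TPM + 1) scale 3 of the 4 fell on day 1 and 1 on day 7, and *Myom2* on day 7 was -0.17 (adjusted p = 0.48).

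**Figure D4:**
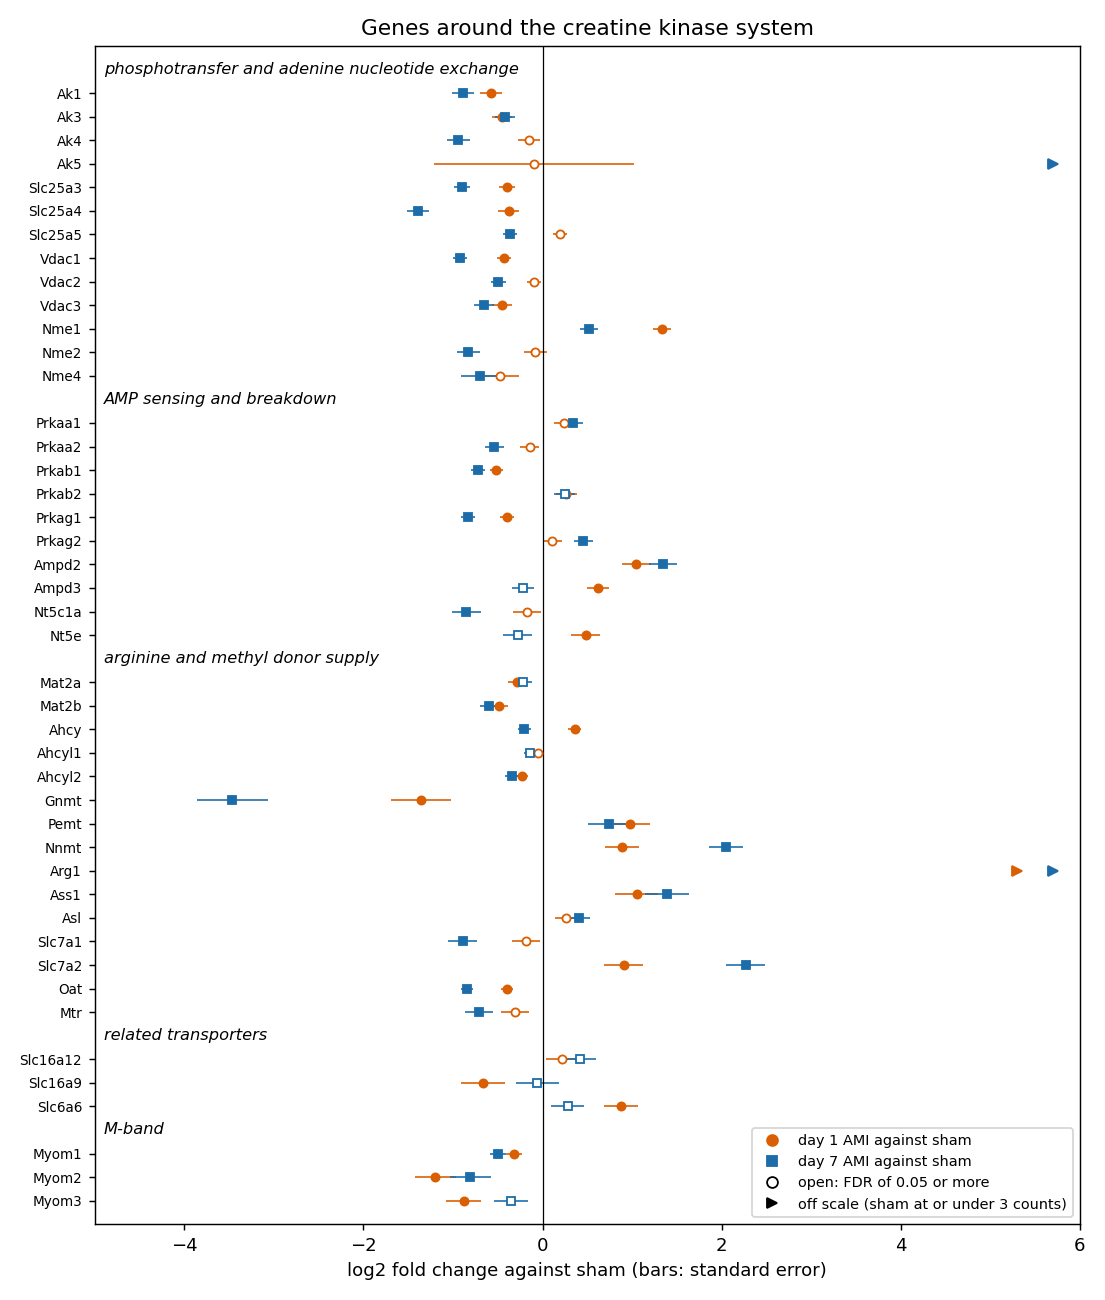
Log2 FC against sham (x axis, bars are SE) for genes of the 5 lists around creatine kinase, on day 1 AMI (circles) and day 7 AMI (squares), filled where the FDR was under 0.05, with triangles for values off the scale. Most phosphotransfer genes lie left of 0 on day 7, where 12 of all 14 tested fell on the TMM scale (28.4% of all genes did) and 4 of 14 on the log2(TPM + 1) scale, while *Arg1*, *Slc7a2*, *Nnmt* and *Ampd2* lie right of 0 on both days.

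Over the 12 hearts, the genes whose log2 CPM followed each member most closely were taken from 12717 protein-coding genes with a mean of at least 1 CPM. These correlations describe 12 libraries in 3 groups and share the difference between groups. For *Ckm* the highest Pearson r was with *Idh2* (0.988), *Sgca* (0.987) and *Prpf19* (0.987), and for *Ckmt2* with *Clybl* (0.993), *Slc25a11* (0.992) and *Ogdhl* (0.989). *Ckb* was most like *Nfatc4* (0.977), *Aoc3* (0.976) and *Inpp5b* (0.974). *Gatm* was most like *Ifit3* (0.988), *Reep4* (0.984) and *Ddx58* (0.984). The members that differed little between groups had weaker partners, with *Thrap3* (0.845), *Mier2* (0.833) and then *Lsm10* for *Slc6a8* and *Mageh1* (0.872), *Fzd7* (0.812) and *Sppl3* (0.794) for *Gamt*. Between members, r was 0.963 for *Ckm* and *Ckmt2* and 0.920 for *Ckb* and *Gatm*. Ranked by Spearman's rho, none of the 3 partners was shared with the Pearson ranking for 5 of the 6 members, and *Mageh1* was shared for *Gamt*.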

How the data were processed

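RNA sequencing of 12 mouse hearts (4 sham, 4 day 1 AMI, 4 day 7 AMI) was analysed, with groups and replicate numbers taken from the sample labels. Nothing says that hearts of 1 number belong together. Reads were aligned by the authors with STAR 2.4.0j to GRCm38 after trimming with Cutadapt, and gene abundance was computed with RSEM. Base calling with CASAVA 1.8 is named in the submitters' processing notes. The raw counts deposited by the authors are whole numbers of reads per gene, without normalization. The TPM deposited by the authors come from RSEM, are corrected for gene length and are rounded to 2 decimals. The counting tool, the strand counted and the treatment of reads that match several genes are not given in the sources used here.

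Counts were fitted with edgeR 4.0.16 in R 4.3.3 (TMM, filterByExpr by group, 1 quasi-likelihood fit of 12 libraries, Benjamini-Hochberg over 15306 of 53801 genes). Log2 CPM used a prior count of 2. SEs and intervals of log2 FCs were derived from the F statistic. Isoform ratios used log2(TPM + 0.1), and the exact permutation test, two-sided and with 4 hearts on each side, served for them and for the members set against the cardiomyocyte markers, in families of 9 and 21 tests. Alternatives were DESeq2 1.42.0, limma 3.58.1 on log2(TPM + 1) and log2(TPM + 0.1), other size factors, no filter, no mitochondrial genome, only the groups compared, a replicate block, other forms of the ratio, and each heart left out. Fits were tested on simulated counts. Figures used matplotlib 3.10.9 in Python 3.11.15.

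The text names the 7 members, genes of the pathway lists and marker lists, and for each tested member the 3 protein-coding genes with the highest Pearson r. The members, lists and tests were chosen with earlier results of these data known. No libraries repeated one another (chi-square per degree of freedom of at least 9.41 within groups). The floor of 3 counts covers counting error only. Some genes of the lists are counted but not reported here by name. Of the gene identifiers, 53620 were in GENCODE M21. Hearts of the same number did not deviate together as a set: r over genes was -0.244 to 0.229 in 12 pairs, over 0.1 in 4 of them. Those of number 3 were an exception, with r of 0.122 (sham and day 1), 0.127 (sham and day 7) and 0.149 (day 1 and day 7).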

Additional observations from a re-analysis of the deposited data

Results flagged for a closer look

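Sham replicate 2 lay far from the other sham hearts in *Ckmt1*. Its log2 CPM of *Ckmt1* was -1.04, and the gap to the nearest sham heart was 0.927 of the range of the group, past the 95% limit of Dixon's test for 4 values. Its log2 TPM ratio of *Ckmt1* to *Ckmt2* was -12.2, with a gap of 0.858 of the range. These values rest on 10 counts of *Ckmt1* in that heart and 3 in each of the others. Tied counts at the floor leave the other hearts little spread, so a few reads can exceed the limit. Both flags share these counts. The same heart had 4450 CPM of erythroid markers, and whether both come from 1 cause was not tested. Of 30 groups of 4 hearts examined in this way, chance flags about 1 in 20.

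The change from sham differed between day 1 and day 7 AMI for 4 members, by the edgeR quasi-likelihood test of day 7 against day 1 hearts. The difference in log2 FC was -0.30 for *Ckm* (adjusted p = 0.0242), -0.32 for *Ckmt2* (adjusted p = 0.0195), 0.87 for *Ckb* (adjusted p = 8.99e-05) and 1.04 for *Gatm* (adjusted p = 0.000155). *Ckm* and *Ckmt2* were lower in 4 of 4 day 7 hearts than in any day 1 heart, and *Ckb* and *Gatm* higher in 4 of 4. Of all genes tested, 24.2% rose and 22.8% fell between these days. The *Ckm* and *Ckmt2* differences did not pass in log2(TPM + 1), at -0.03 and -0.09 (adjusted p = 0.812 and 0.562), or with library sizes alone (adjusted p = 0.16 and 0.138).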

How the results depend on the processing

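The calls on *Ckm*, *Ckb* and *Gatm* for day 7 AMI against sham kept their direction and passed in all 10 other settings and all 12 fits without 1 heart. DEGs numbered 1648 (1192 up, 456 down) on day 1, 3246 (2346 up, 900 down) on day 7 against sham and 1719 (1308 up, 411 down) between the days. With limma on log2(TPM + 1) they numbered 1020 (957 up, 63 down), 2668 up and 111 down, and 1009 (879 up, 130 down), and with log2(TPM + 0.1) the splits were 1751 and 145, 4163 and 189, and 1734 and 208, and with library sizes alone they were 1764 and 217, 3633 and 318, and 1626 and 293. Library sizes alone moved the median gene by 0.27, 0.40 and 0.13. Between the days, 2 members passed with library sizes alone and 2 without day 7 AMI replicate 4, against 4 (2 to 5 over the fits without 1 heart, *Ckmt1* included). *Ckmt1* entered those fits through its day 7 hearts, so its pass there adds no support.

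*Slc6a8* turned positive on day 1 with log2(TPM + 1) (0.24), log2(TPM + 0.1) (0.24), library sizes alone (0.18) and without sham replicate 2 (0.0211), on day 7 with the first 3 (0.47, 0.47 and 0.24), and between the days with the same 3 (0.23, 0.24 and 0.0597) and without day 1 AMI replicate 3 (0.00811). Over the fits without 1 heart, *Slc6a8* ran from -0.16 to 0.0211 on day 1 and from -0.13 to 0.00811 between the days. On day 1 *Ckb* was -0.0505 without sham replicate 1 (up to 0.17 without another heart), and *Gamt* was -0.0628, -0.0347 and -0.0559 (up to 0.16) without sham replicate 1, sham replicate 4 and day 1 AMI replicate 3. These changes of *Ckb*, *Slc6a8* and *Gamt* did not pass, except *Slc6a8* on day 7 in TPM (adjusted p = 0.00375 and 0.00367). *Ckm* on day 7 was -0.77 and *Ckb* 1.29 with library sizes alone. The cause of these shifts was not tested.

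The lists and the pathway genes were set on the log2(TPM + 1) scale and with library sizes alone by a choice made after seeing the data. Signs turned for *Prkaa2* (0.18 and 0.14 on day 1, 0.0303 on day 7 in TPM), *Slc7a1* (0.15 and 0.0892 on day 1), *Slc16a9* (0.29 and 0.34 on day 7), *Myom3* (0.0464 and 0.0421 on day 7) and, with library sizes alone, *Ak5* on day 1 (0.14), and none of these passed.

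The *Ckmt1* to *Ckmt2* ratio with raw counts plus 1 was -0.28 on day 1 and 1.58 on day 7 against sham. Set against the cardiomyocyte markers in log2(TPM + 0.1), *Ckmt1* differed by 0.19 on day 1 and 1.65 on day 7 (adjusted p = 0.0429), and *Ckmt2* by -0.0062 on day 1. Against the median of the markers, *Ckmt2* differed by -0.00455 between the days, *Ckm* by -0.25 and -0.24 (adjusted p = 0.113), and with an adjusted p of 0.0545 *Ckb* by 1.84 and 1.17, *Slc6a8* by 0.79 and 0.25 (day 7 against sham and against day 1), *Ckmt1* by 1.61 between the days, *Gatm* by 1.13, 2.45 and 1.32, and *Gamt* by 0.65, 1.20 and 0.56. Exact tests of 3 hearts against 4 have 35 splits, and without 1 heart 32 of 72 fits of a ratio and 73 of 168 of a member against the markers no longer passed, with an unchanged sign. None of the 10 fits against the markers in which a sign turned (*Ckmt1* on day 1, and *Ckmt2*) passed there or with all hearts.

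With 1 heart left out, the differences against sham on day 1, against sham on day 7 and between the days ran as follows. The *Ckb* to *Ckm* ratio ran 0.77 to 1.03, 1.92 to 2.18 and 1.05 to 1.30. The *Ckmt2* to *Ckm* ratio ran 0.22 to 0.31, 0.18 to 0.25 and -0.0966 to -0.00234. The *Ckmt1* to *Ckmt2* ratio ran 0.016 to 0.46, 1.47 to 1.90 and 1.27 to 1.62. Against the markers, *Ckm* ran -0.31 to -0.23, -0.26 to -0.18 and 0.0209 to 0.088, *Ckmt1* ran -0.21 to 0.30, 1.45 to 1.95 and 1.48 to 1.90, *Ckmt2* ran -0.0398 to 0.0511, -0.00764 to 0.0854 and -0.0106 to 0.0817. There *Ckb* ran 0.54 to 0.81, 1.75 to 2.02 and 1.12 to 1.35, *Slc6a8* ran 0.41 to 0.66, 0.70 to 0.95 and 0.21 to 0.34, *Gatm* ran 1.02 to 1.21, 2.31 to 2.65 and 1.21 to 1.55. *Gamt* ran 0.52 to 0.73, 1.12 to 1.33 and 0.50 to 0.71.

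With the replicate block, DEGs numbered 1621, 3240 and 1696 and members past the FDR 3, 4 and 4, and the block changed no call on a member. The hearts share only a number, and 4 of 12 correlated best with their own number. Depth limits *Ckmt1*, at 2 to 13 counts, in every comparison.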
